A study of Mus musculus with 9 samples.

Results

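Livers that an adeno-associated virus (AAV) vector had supplied with human glucocorticoid receptor β (AAV-hGRβ) were compared with untreated livers, so the difference holds the vector and the receptor isoform together. The comparison used 6 of the 9 arrays of the series, chosen by their labels: 3 of AAV-hGRβ liver (replicates 1, 2 and 3) and 3 of untreated liver (replicates 2, 3 and 4). The remaining 3 arrays came from mice given the same kind of vector with green fluorescent protein (AAV-GFP) and are set beside the result. All animals were male C57BL/6 mice aged 3 months, and each RNA came from a liver lobe. Dose, route, serotype, promoter and time after injection are not given in the sources used here, and the labels do not say that replicates are separate animals, so p-values measure the spread between these samples, which may be technical.

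AAV is a small single-stranded DNA virus used to bring genes into hepatocytes. The glucocorticoid receptor, encoded by Nr3c1, is made as an α form, which binds hormone and switches genes of glucose and amino acid metabolism on in liver, and as a β form, which differs at its carboxyl end, does not bind the usual hormones and is known as an antagonist of the α form. Cells that sense foreign nucleic acid make interferon, which acts through its receptors, signal transducers and the interferon regulatory factors to switch on antiviral genes, and cytotoxic T cells and natural killer (NK) cells enter infected tissue.

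A level is given as log2 of the processed spot intensity minus the array's 75th percentile, so 0 lies at that percentile, and a difference is AAV-hGRβ minus untreated on the log2 scale. Values of single arrays follow the order untreated replicates 2, 3 and 4, then AAV-hGRβ replicates 1, 2 and 3. The share of gene spots well above background ran from 54.0% to 68.6% on the untreated arrays and from 60.5% to 82.0% on the AAV-hGRβ arrays. Correlations over all genes tested ran from 0.973 to 0.988 within groups and from 0.950 to 0.989 between groups. Untreated replicate 2 correlated with the other untreated arrays at 0.974 and 0.976. With AAV-GFP replicates 1, 2 and 3 it correlated at 0.984, 0.986 and 0.989, and with AAV-hGRβ replicates 1, 2 and 3 at 0.983, 0.980 and 0.975. Of these, AAV-GFP replicate 3 and AAV-hGRβ replicate 1 were scanned on the same day as untreated replicate 2. All 28 hepatocyte markers on the array were measured, at a mean level of 6.66 to 6.85 in untreated and 6.29 to 6.65 in AAV-hGRβ livers. Probes for the delivered human receptor and for GFP were not analysed here, so the labels were not checked against the transgenes.

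Of 16574 genes tested, 591 differed between AAV-hGRβ and untreated liver (limma, adjusted p under 0.05, 3.57% of genes). There were 448 genes higher with AAV-hGRβ (2.7% of those tested) and 143 lower (0.863%). Rises were also the larger changes: the median of the higher genes was 1.78, with 168 at least 4-fold higher, while the median of the lower genes was -1.00, with 5 at least 4-fold lower. All 591 had groups that did not overlap, against 29.7% of all genes tested (15.3% higher, 14.4% lower).

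**Figure D1:**
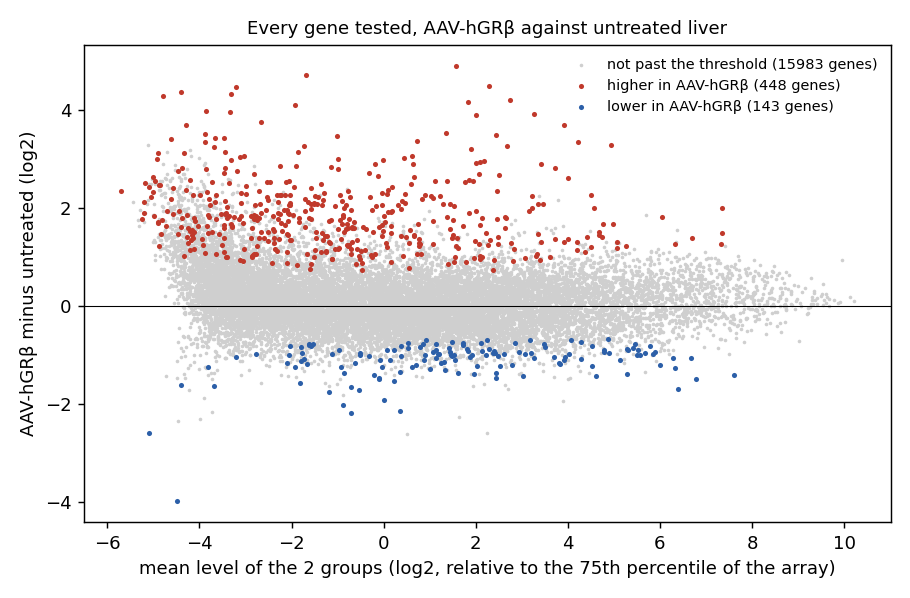
Difference between AAV-hGRβ and untreated liver (log2, y axis) against the mean level of both groups (log2 relative to the 75th percentile of the array, x axis) for the 16574 genes tested, each point a gene. The 448 higher genes spread from dim to bright signals, and the 143 lower genes have smaller differences.

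The rises were more frequent among dim genes. Among the 4144 genes with the lowest mean level over the 6 arrays, 151 were higher and 7 lower, and the median difference was 0.40, against 61 higher, 55 lower and a median of 0.06 among the 4144 with the highest level. Probes entered the test when all 3 arrays of either group had them well above background. The 1882 genes kept through AAV-hGRβ alone therefore tended to be higher there (median difference 0.94), and 135 of the 448 were such genes. Among the 14492 genes measured on all 6 arrays 313 were higher and 139 lower. Scaling also moves the split: the median difference of all genes was 0.10 as reported and -0.26 with arrays centred on their medians, where 363 genes were higher and 293 lower. Background correction matters too: with normexp, which models the background and adds a fixed offset of 50 to every signal, 43 of the 448 higher and 0 of the 143 lower genes passed, and 340 and 127 passed once bright local backgrounds were replaced (replaced normexp). Each slide held a single group, except that AAV-hGRβ replicate 1 shared its slide with AAV-GFP replicate 3, and in a fit with slide as a random block, called the slide fit here, 56 of the 448 higher and 4 of the 143 lower genes passed. Leaving out an array changed the count of 591 to 2116, 117 and 103 without untreated replicates 2, 3 and 4, and to 362, 288 and 101 without AAV-hGRβ replicates 1, 2 and 3; in the same order the lower genes numbered 695, 8 and 8, then 135, 27 and 8.

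Interferon-stimulated genes, which block steps of viral growth, rose together. Of 43 tested, 31 were higher and 0 lower, with a median of 1.83 and a range from 0.39 to 4.89. All 43 were above 0 and 42 had groups that did not overlap, against 15.3% of all genes in this direction. Isg15, a ubiquitin-like protein joined to other proteins during infection, had levels of 2.55, 1.37 and 2.26 in untreated and 5.47, 5.41 and 6.39 in AAV-hGRβ livers, a difference of 3.70 ± 0.37 (SE) with adjusted p = 0.00243. Ifit1, which binds viral RNA lacking host cap marks, had levels of 0.78, -0.01 and 0.84 and 3.32, 3.38 and 3.68, a difference of 2.92 ± 0.26 (SE) with adjusted p = 0.00146. In both genes every AAV-hGRβ array lay above every untreated array.

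Ifi44, an interferon-induced gene, showed the largest rise of the named genes: -0.48, -1.17 and -0.96 in untreated and 3.76, 3.63 and 4.67 in AAV-hGRβ livers, a difference of 4.89 ± 0.35 (SE), or 29.7-fold (adjusted p = 0.000742; probe at chr3:151631285-151631344, mm7, with a second probe at 2.34). Oas1a and Oas1f belong to the oligoadenylate synthetases, which answer double-stranded RNA by making the signal that activates RNase L. They rose by 3.91 ± 0.27 (SE) and 3.93 ± 0.27 (SE) (both adjusted p = 0.000742). Zbp1, which detects left-handed nucleic acid, rose by 2.67 (adjusted p = 0.00146), and Bst2, which tethers budding virions to the cell, rose by 1.50 (adjusted p = 0.011). Oas1b was not well above background on any untreated array and was at least 1.69-fold higher (means -6.15 and -3.93, adjusted p = 0.00146); a bound of this kind sets the bright group's mean against a floor, which on each dim array is the dimmest signal well above background or, if brighter, the signal of the probe itself. Oas1b was -0.40 with normexp and did not pass with quantile normalization (adjusted p = 0.0677) or replaced normexp (0.128). Of the 40 list members with a probe above background on all 6 arrays 28 were higher (median 1.72). Of the 31, 14 passed in the slide fit, and 16 genes of the list were called with normexp. The count was 20 without untreated replicate 3, 18 without untreated replicate 4 and 20 without AAV-hGRβ replicate 3.

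The upstream sequence of 3 of these genes is shown because the response element of interferon-activated factors can be read in it. The lines give the 200 bases before the transcription start from RefSeq (GRCm38.p6), 5′ to 3′ on the gene's strand, with matches to the core of the interferon-stimulated response element (GAAA, any 2 bases, GAAA; either strand, matches may overlap) in capitals. Isg15 lies on the minus strand (chr4:156200819-156201018) with 3 overlapping matches, Ifit1 on the plus strand (chr19:34640689-34640888) with 2, and Oas1a on the minus strand (chr5:120907526-120907725) with 2 that end 4 bases before the start. The array's annotation places the Isg15 probe on another chromosome than this promoter (chr17:44534906-44534965, mm7), and the reason was not tested.
Isg15: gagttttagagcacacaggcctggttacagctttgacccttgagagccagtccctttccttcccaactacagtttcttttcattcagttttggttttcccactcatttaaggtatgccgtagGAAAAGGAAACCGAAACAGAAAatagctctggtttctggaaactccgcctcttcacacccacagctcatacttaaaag
Ifit1: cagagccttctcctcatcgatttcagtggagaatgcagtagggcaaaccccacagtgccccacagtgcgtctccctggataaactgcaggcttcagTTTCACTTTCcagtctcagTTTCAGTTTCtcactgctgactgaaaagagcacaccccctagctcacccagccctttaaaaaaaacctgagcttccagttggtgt
Oas1a: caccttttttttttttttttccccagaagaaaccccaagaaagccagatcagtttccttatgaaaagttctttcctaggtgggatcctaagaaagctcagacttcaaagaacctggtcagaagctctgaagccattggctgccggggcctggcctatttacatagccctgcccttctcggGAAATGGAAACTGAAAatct

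RefSeq's table held a promoter for 11150 of the genes tested. Within 250 bases upstream, the core was found in 374 of these (3.35%), in 36 of the 306 higher genes with a promoter (11.8%) and in 2 of the 90 lower genes (2.22%). Among the interferon-stimulated genes it was in 14 of the 30 with a promoter (46.7%) and in 10 of the 20 that rose. For comparison, the antioxidant response element core (TGAC, any 3 bases, GC) was in 11.4% of the higher, 5.56% of the lower and 13.8% of all genes, and the full glucocorticoid response element (AGAACA, any 3 bases, TGTTCT) was in 2 of the 11150 promoters and in 0 of the higher or lower genes. These are descriptions of letters in a window, not of binding.

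The interferon β gene was also called higher, on a probe that entered the test through the AAV-hGRβ arrays alone. Ifnb1 was not well above background on any untreated array (-6.64, -6.02 and -5.77) and was on every AAV-hGRβ array (-2.36, -2.38 and -2.61), a rise of at least 4.7-fold (adjusted p = 0.000742; probe at chr4:87925845-87925904, mm7). The call was lost with normexp, where the difference was 0.07 (adjusted p = 0.974), and with replaced normexp it was 1.20 (adjusted p = 0.0223), less than that bound. Irf7, the factor that amplifies interferon production, had levels of 0.38, 0.33 and 0.19 and 3.46, 3.26 and 3.82, a difference of 3.21 ± 0.22 (SE) with adjusted p = 0.000742. Irf9, part of the complex that binds the element shown above, rose by 0.73 (adjusted p = 0.04995, 0.278 in the slide fit). Ifnb1, Irf7 and Irf9 were among the 4 higher of 21 ligands, receptors and factors tested (median 0.44; on probes above background on all 6 arrays 3 of 19 were higher (median 0.30)), and 2 of the list passed in the slide fit. Ifna2 and Ifna4 were too dim to test. Without untreated replicates 2, 3 and 4 the list had 6, 2 and 2 higher genes, and without AAV-hGRβ replicates 1, 2 and 3 it had 2 in each case.

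Sensors of foreign nucleic acid were partly higher, 7 of 17, with a median of 0.31 that turned to -0.05 with arrays centred on their medians. Dhx58 and Ifih1, RIG-I-like receptors of double-stranded RNA, rose by 1.90 (adjusted p = 0.00571) and 2.09 (adjusted p = 0.015), and Ifi204 and Ifi205, of the DNA-binding p200 family, by 1.80 and 1.95 (adjusted p = 0.015 and 0.0155). In the slide fit 2 of the 7 passed, and 2 passed without untreated replicate 3, untreated replicate 4 or AAV-hGRβ replicate 3. In class I antigen presentation 2 of 17 genes were higher, both of them immunoproteasome subunits: Psmb8 by 1.40 (adjusted p = 0.018) and Psmb9 by 1.51 (adjusted p = 0.0217). The list's median was 0.47, and 0.12 with arrays centred on their medians, where 0 genes were higher. Neither subunit passed in the slide fit (adjusted p = 0.11 and 0.151). Without untreated replicate 2 it had 6 higher genes, without AAV-hGRβ replicate 1 it had 2, and without any other array it had 0. For class II presentation 0 of 10 passed (3 with unadjusted p under 0.05, all higher; 0 in the slide fit), and its median of 0.19 was -0.16 with arrays centred on their medians.

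Among the 16 largest rises, immune cell genes stood beside interferon genes. Gzma, a serine protease of cytotoxic granules, had levels of -3.29, -4.29 and -4.57 in untreated and 0.77, -0.31 and 1.53 in AAV-hGRβ livers, a difference of 4.71 ± 0.47 (SE) with adjusted p = 0.00243. Cd8a, a chain of the co-receptor of cytotoxic T cells, had levels of -5.51, -5.74 and -5.18 and -0.91, -2.29 and -0.24, and this probe, not well above background on any untreated array, was at least 11.6-fold higher (adjusted p = 0.00488, 0.0584 in the slide fit); another of its 3 probes was above background there. With normexp the Cd8a call was lost (0.74, adjusted p = 0.785). Pdcd1, the inhibitory receptor PD-1 of activated T cells, rose by 4.46 ± 1.01 (SE) with adjusted p = 0.04995 (0.278 in the slide fit). Its untreated arrays spread from -6.52 to -3.61. In all 3 genes the groups did not overlap, which was a condition for being among the 16.

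Slfn4, a Schlafen gene of myeloid cells, and Wfikkn2, a secreted protein that binds growth factors of the myostatin group, were not well above background on any untreated array. They were at least 5.53-fold and at least 4.11-fold higher (means -6.58 and -2.22, and -6.94 and -2.64; adjusted p = 0.00146 and 0.00444). Both calls were lost with normexp (differences 0.22 and 0.13, adjusted p = 0.916 and 0.948), and with replaced normexp the differences of 1.35 and 1.19 passed but were below these bounds. Ly6a, also called Sca-1 and induced by interferon, rose from -0.15, -0.49 and -0.12 to 4.17, 3.36 and 4.19, by 4.16 ± 0.36 (SE) (adjusted p = 0.00146). Ly6d, of the same family of surface proteins, rose by 4.21 ± 0.52 (SE) (adjusted p = 0.00584, 0.075 in the slide fit). Of other genes named here, the probes of Gzma, Ccl4, Psrc1, Cdkn1a, Cd40 and Ccnb1 were well above background on 2 of the 3 untreated arrays and those of Pdcd1, Ccl3 and Mmp13 on 1, and 0 of these 9 genes passed with normexp.

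**Figure D2:**
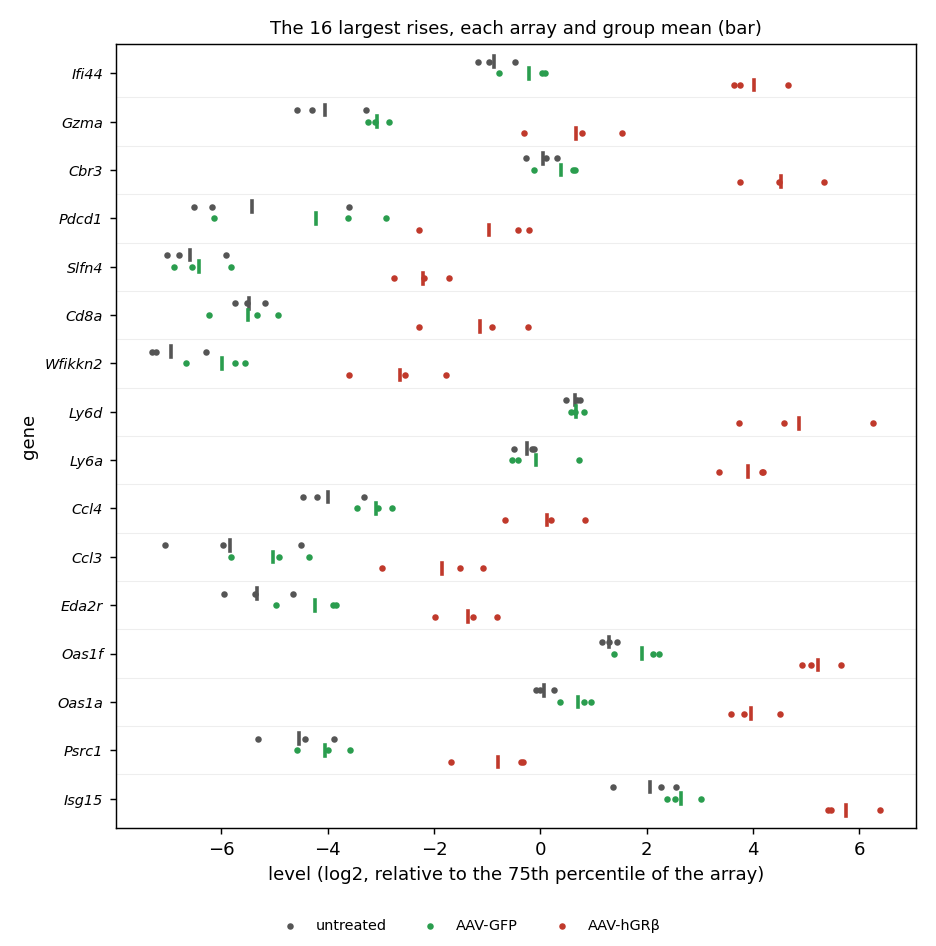
Level (log2 relative to the 75th percentile of the array, x axis) of the 16 genes with the largest rises, each point an array and each bar a group mean. They were chosen for their difference among called genes whose groups do not overlap, so the separation of the groups is given by the choice. All AAV-hGRβ arrays lie above all untreated arrays, the probes of Slfn4, Cd8a, Wfikkn2 and Eda2r were not well above background on any untreated array, and Ifi44 runs from -1.17 to -0.48 in untreated and from 3.63 to 4.67 in AAV-hGRβ livers.

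A minority of the markers of each immune cell type passed, most of them higher in the whole tissue. Because these are bulk samples, more cells of a type and more RNA per cell cannot be told apart. Of 30 T and NK cell markers tested 9 were higher and 1 lower (median 1.48), and of the 18 with a probe above background on all 6 arrays 5 were higher and 1 lower (median 0.97). Besides Gzma, Cd8a and Pdcd1, Gzmb, a granule protease that triggers cell death, had levels of -2.95, -3.40 and -3.74 and -0.47, -0.65 and 0.81 (difference 3.26 ± 0.39 (SE), adjusted p = 0.00498). Nkg7, a granule membrane protein, rose by 2.23 (adjusted p = 0.0248), and Ccl5, a chemokine of cytotoxic cells, rose by 2.94 (adjusted p = 0.0184). The mean level of the list ran from -2.92 to -2.04 in untreated, -2.61 to -1.84 in AAV-GFP and -1.46 to -0.66 in AAV-hGRβ livers. Cd28, Gzmk, Eomes and Ctla4 were too dim to test, and of the defining T cell receptor complex Cd3e, looked up after the results were known, differed by -0.15 (adjusted p = 0.847) and Cd3d by 2.39 (adjusted p = 0.0516).

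Kupffer cells are the resident macrophages of liver. Of 20 Kupffer cell and macrophage markers 6 were higher (median 1.10; mean level 1.25 to 1.73 in untreated, 1.40 to 2.11 in AAV-GFP and 2.37 to 2.96 in AAV-hGRβ livers). Mpeg1, a pore-forming protein of macrophages, had levels of 4.02, 4.21 and 4.18 and 5.70, 5.69 and 6.03 (difference 1.67 ± 0.17 (SE), adjusted p = 0.00256, 0.023 in the slide fit). The high-affinity antibody receptor Fcgr1, the scavenger receptor Msr1, the secreted Cd5l and the Kupffer cell lectin Clec4f rose by 1.80, 1.52, 1.26 and 1.18 (adjusted p = 0.0259, 0.0421, 0.0428 and 0.036).

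Dendritic cell markers had 4 of 13 genes higher (median 1.26), among them Cd83 at 2.22 and Itgax, the integrin CD11c, at 1.60 (adjusted p = 0.0322 and 0.0389); Itgax was -0.01 with normexp. The other members that rose were Ly6d and Bst2, given above, and Bst2 is also on the interferon-stimulated list. Markers of dendritic cell subsets did not pass: Xcr1 was at -0.17, Zbtb46 at -0.19, Tcf4 at -0.43, Fscn1 at -0.31, Flt3 at 0.42 and Clec9a at 0.74 (adjusted p from 0.165 to 0.72). Neutrophil and monocyte markers had 3 of 14 higher (median 1.47): Ly6c1 at 3.35, the monocyte chemokine receptor Ccr2 at 1.78 and the chitinase-like Chil3 at 1.93 (adjusted p = 0.00146, 0.032 and 0.0267). Of the B and plasma cell markers 1 of 13 was higher, the sialic acid-binding receptor Cd22, at 1.39 (adjusted p = 0.0348), and Cd79a, Pax5 and Blk were too dim to test; the list's median was 0.79, and 0.36 over the 11 genes with a probe above background on all 6 arrays. With normexp the median turned negative for dendritic (-0.45), neutrophil and monocyte (-0.06) and B and plasma cell markers (-0.04), and it was 0.08 for T and NK cell markers and 1.09 for macrophage markers. Calls with normexp were 0 macrophage, 1 T and NK, 1 dendritic, 1 neutrophil and monocyte and 0 B and plasma cell markers. Of the macrophage markers 3 were higher with arrays centred on their medians and 7 with replaced normexp. The slide fit kept calls for 1 T and NK, 1 macrophage, 1 neutrophil and monocyte, 0 dendritic and 0 B cell markers.

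Counts of these lists were smaller without some arrays. T and NK cell markers had 16, 3 and 3 higher genes without untreated replicates 2, 3 and 4 and 3, 7 and 3 without AAV-hGRβ replicates 1, 2 and 3. Macrophage markers had 6, 1 and 1, then 3, 2 and 1, in the same order. Dendritic cell markers had 5, 1 and 1, then 2, 4 and 1, neutrophil and monocyte markers had 6, 1 and 1, then 2, 3 and 1, and B and plasma cell markers had 3, 0 and 0, then 0, 1 and 0. The part that these cell markers play in the interferon and chemokine results was not tested.

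Chemokines, the proteins that draw leukocytes into tissue, had 8 of 20 genes higher and 1 lower (median 1.20), and of the 16 with a probe above background on all 6 arrays 4 were higher and 1 lower (median 0.90). Ccl4, an inflammatory chemokine, had levels of -3.31, -4.46 and -4.20 in untreated and 0.19, -0.67 and 0.84 in AAV-hGRβ livers, a difference of 4.11 ± 0.42 (SE) (adjusted p = 0.00256). Its neighbour in function Ccl3 rose by 3.98 ± 0.71 (SE) (adjusted p = 0.026). Cxcl9 and Cxcl10, interferon-induced ligands of the T cell receptor CXCR3, had levels of 1.45, 0.52 and 0.75 against 2.38, 2.35 and 2.91 and 0.76, -0.19 and 0.17 against 2.45, 1.91 and 2.61, and rose by 1.64 and 2.08 (adjusted p = 0.0173 and 0.0114). The lower gene, singled out after its value was seen, was Cxcl12, which retains cells through CXCR4, at -0.68 (adjusted p = 0.0497). A single chemokine, 1 of the 8, passed in the slide fit, and the number higher was 9, 2 and 1 without untreated replicates 2, 3 and 4 and 5, 6 and 1 without AAV-hGRβ replicates 1, 2 and 3.

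In the TNF and NF-κB list 5 of 23 genes were higher, with a median of 0.29 that was -0.06 with arrays centred on their medians. Tnf, the cytokine itself, was not well above background on any untreated array (-4.96, -4.96 and -4.72; AAV-hGRβ -3.15, -3.88 and -3.05) and its rise was at least 2.32-fold (adjusted p = 0.0158). The direction of Tnf turned with normexp (-0.39), and its call was lost with quantile normalization (adjusted p = 0.193), with arrays centred on their medians (0.061) and with replaced normexp (0.125). The adhesion molecules Icam1 and Vcam1, which hold leukocytes on vessel walls, rose by 0.90 and 1.68 (adjusted p = 0.0344 and 0.0428). Cd40, a co-stimulatory receptor, rose by 1.89 and Traf1, a signalling adaptor, by 1.14 (adjusted p = 0.0469 and 0.0348). None of the 5 passed in the slide fit, and the list had 6, 0 and 0 higher genes without untreated replicates 2, 3 and 4 and 1, 2 and 0 without AAV-hGRβ replicates 1, 2 and 3.

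Targets of p53, the factor that answers DNA damage, were higher in 12 of 29 cases, with 0 lower and a median of 1.11; of the 22 with a probe above background on all 6 arrays 8 were higher (median 0.67). Cdkn1a, the cell cycle inhibitor p21, had levels of -3.33, -4.01 and -2.92 in untreated and -0.06, -0.98 and 0.20 in AAV-hGRβ livers, a difference of 3.14 ± 0.39 (SE) (adjusted p = 0.00627, 0.0725 in the slide fit). Phlda3, an inhibitor of Akt, had levels of -0.29, -0.34 and -0.62 and 3.26, 2.42 and 3.66, a difference of 3.53 ± 0.29 (SE) (adjusted p = 0.00146). Eda2r, a death-domain receptor, was not well above background on any untreated array and was at least 9.32-fold higher (means -5.32 and -1.36, adjusted p = 0.00365), a call lost with normexp (0.64, adjusted p = 0.793). Psrc1, a spindle protein, rose by 3.76 ± 0.47 (SE) and Ddit4l, an inhibitor of mTOR signalling, by 2.72 ± 0.35 (SE) (adjusted p = 0.00627 and 0.00727). In the slide fit 3 of the 12 passed, 3 genes of the list were called with normexp, and the list had 16, 5 and 5 higher genes without untreated replicates 2, 3 and 4 and 7, 7 and 5 without AAV-hGRβ replicates 1, 2 and 3.

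Of 42 cell cycle genes 17 were higher and 0 lower, with a median of 1.31, and of the 31 with a probe above background on all 6 arrays 13 were higher (median 1.13). Birc5, the chromosomal passenger survivin, had levels of 0.04, -0.61 and -0.23 and 1.91, 1.54 and 2.31 and rose by 2.19 ± 0.38 (SE) (adjusted p = 0.0233). Rrm2, the inducible subunit of ribonucleotide reductase, had levels of -1.59, -1.89 and -2.06 and -0.05, 0.35 and 0.35 and rose by 2.06 ± 0.30 (SE) (adjusted p = 0.0119). The cyclins Ccna2 and Ccnb1 and the spindle midzone protein Prc1 rose by 1.82, 1.38 and 1.74 (adjusted p = 0.0175, 0.0116 and 0.02); Ccnb1 was -0.20 with normexp. Among the 25 that did not pass were genes of DNA replication: Pcna was at 0.21, Mcm2 at 0.18, Mcm7 at 0.02, Cdt1 at 0.21 and Tk1 at -0.31 (adjusted p from 0.273 to 0.954). With normexp 0 of the list passed and the median was 0.48. Cell division itself was not measured, and in whole tissue these transcripts cannot be assigned to a cell type. None of the 17 passed in the slide fit, and the number higher was 20, 0 and 0 without untreated replicates 2, 3 and 4 and 4, 10 and 0 without AAV-hGRβ replicates 1, 2 and 3.

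Targets of NRF2, the factor of the antioxidant and detoxification response, included a few large rises. Of 31 tested 6 were higher and 0 lower, and 25 were above 0. Groups did not overlap for 13 in the higher direction, against 15.3% of all genes, and for 0 in the lower. At an unadjusted p under 0.05 in limma 11 were higher and 0 lower. The median of 0.25 was -0.10 with arrays centred on their medians and 0.71 with normexp, where 2 genes were called. Cbr3, a carbonyl reductase, had levels of 0.30, 0.11 and -0.27 in untreated and 4.49, 3.76 and 5.34 in AAV-hGRβ livers, a difference of 4.48 ± 0.39 (SE), or 22.3-fold (adjusted p = 0.00146). The quinone reductase Nqo1 had levels of 1.19, 1.01 and 0.91 and 2.87, 3.00 and 3.08 and rose by 1.95 ± 0.25 (SE) (adjusted p = 0.00727). Gsta1, a glutathione transferase with close copies that can share its probe, Srxn1, which repairs peroxiredoxins, and Cbr1, a second carbonyl reductase, rose by 1.81, 1.41 and 1.31 (adjusted p = 0.017, 0.0125 and 0.0204). In the slide fit 1 of the 6 passed, and 2 passed without untreated replicate 3, untreated replicate 4 or AAV-hGRβ replicate 3.

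In the unfolded protein and integrated stress response 1 of 30 genes was higher, the immediate early factor Atf3, with levels of -2.53, -2.06 and -2.86 and -0.62, -0.68 and 0.10 and a difference of 2.08 ± 0.27 (SE) (adjusted p = 0.00756, 0.0836 in the slide fit). The share called in this list, 3.33%, was near the 2.7% of all genes called higher. At an unadjusted p under 0.05 in limma 4 of its genes were higher and 6 lower. The list's median was 0.20 as reported and -0.15 with arrays centred on their medians. Of the fetal liver genes 3 of 15 were higher: Afp, α-fetoprotein, at 1.55 (adjusted p = 0.0359), the pyruvate kinase Pkm at 0.73 (adjusted p = 0.0463), and Ly6d, given above. None of the 3 passed in the slide fit, the list had 5 higher genes without untreated replicate 2 and 1 without any other array, and its median of 0.39 was 0.04 with arrays centred on their medians and -0.12 with normexp. Mmp13, a collagenase, was the single gene of 27 in the stellate cell and matrix list to pass, at 3.42 ± 0.53 (SE) (adjusted p = 0.0145, 0.0922 in the slide fit), a share near that of all genes; 0 of the 25 with a probe above background on all 6 arrays passed.

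The falls were smaller and included enzymes of lipid synthesis and fatty acid oxidation. The largest was Adam12, a membrane metalloprotease, which was well above background on every untreated array (-1.50, -2.37 and -3.67) and on no AAV-hGRβ array (-5.76, -6.90 and -6.77), at least 5.03-fold lower (adjusted p = 0.00727; probe at chr7:130289038-130289097, mm7). None of the AAV-GFP arrays had it well above background either (-6.78, -7.10 and -6.74). Fras1, an extracellular matrix protein, was likewise below background on the AAV-hGRβ arrays and at least 2.05-fold lower (means -3.80 and -6.39, adjusted p = 0.00515). With replaced normexp Adam12 was at -1.18 and Fras1 at -0.57, and neither passed (adjusted p = 0.0555 and 0.103). Gas1, a membrane-anchored growth arrest protein, had levels of 0.72, 1.28 and 0.90 and -0.60, -1.38 and -0.88 (difference -1.92 ± 0.25 (SE), adjusted p = 0.00751).

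Polr3g, which belongs to RNA polymerase III, had levels of 0.59, 0.73 and 0.58 in untreated and -0.98, -0.61 and -0.96 in AAV-hGRβ livers and a difference of -1.48 ± 0.17 (SE) with adjusted p = 0.00396, the smallest among the lower genes named (0.0255 in the slide fit). Tbc1d16, a Rab GTPase activator, and Odz3, a teneurin adhesion protein, differed by -2.02 and -1.72 (adjusted p = 0.0257 and 0.00751). Steap2, a metalloreductase, Pgap1, which remodels lipid anchors, and Camk2n2, an inhibitor of CaM kinase II, differed by -1.63, -1.57 and -1.47 (adjusted p = 0.0232, 0.0143 and 0.0174). Ddah1, which degrades methylated arginines, and Scnn1a, a subunit of the epithelial sodium channel, differed by -1.39 and -1.36 (adjusted p = 0.0421 and 0.0345). Of the 16 largest falls, Adam12, Fras1 and Polr3g passed in the slide fit (adjusted p = 0.0367, 0.0255 and 0.0255) and the other 13 did not. Steap2 was well above background on 1 AAV-hGRβ array and did not pass with replaced normexp (-0.51, adjusted p = 0.128).

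**Figure D3:**
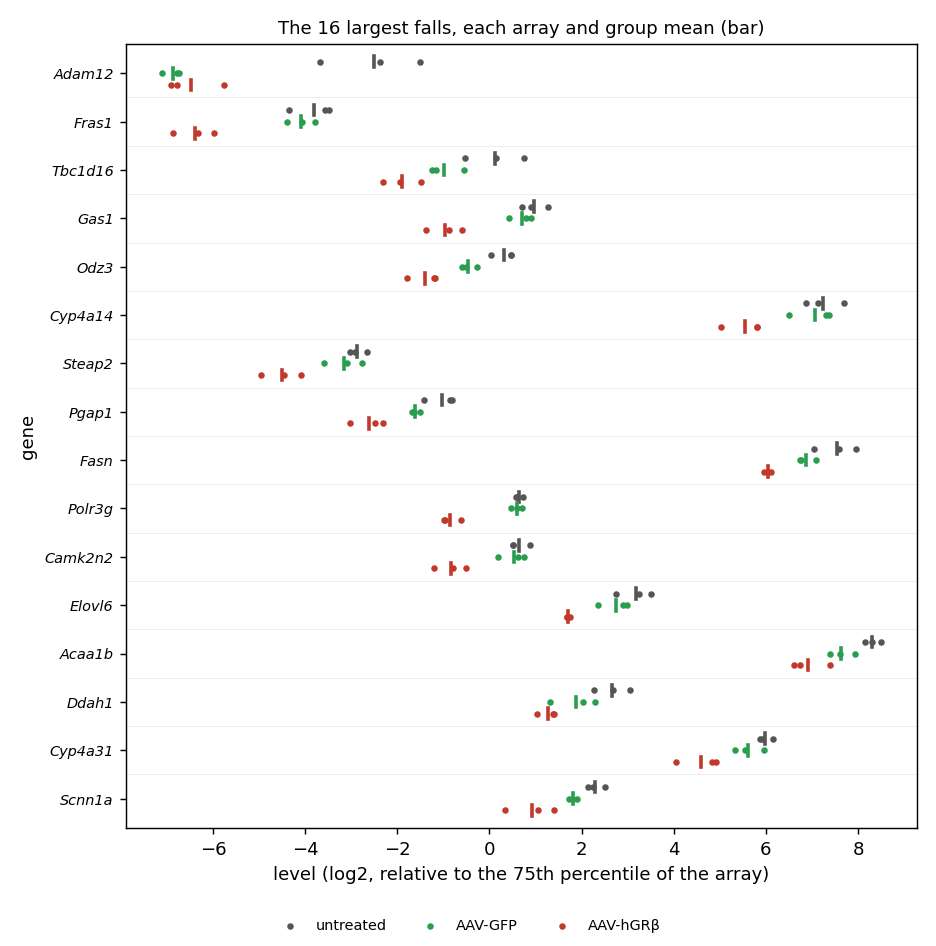
Level (log2 relative to the 75th percentile of the array, x axis) of the 16 genes with the largest falls, each point an array and each bar a group mean. They were chosen for their difference among called genes whose groups do not overlap, so the separation of the groups is given by the choice. All AAV-hGRβ arrays lie below all untreated arrays, and for Adam12 the AAV-GFP arrays, between -7.10 and -6.74, are also below the untreated ones.

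Fatty acid synthesis had 3 of 35 genes lower and 0 higher, with a median of -0.68. Over all genes tested 0.863% were lower. Groups did not overlap in the lower direction for 23 of the 35, against 14.4% of all genes tested. Fasn, fatty acid synthase, had levels of 7.05, 7.96 and 7.58 in untreated and 6.12, 6.03 and 5.96 in AAV-hGRβ livers, a difference of -1.49 ± 0.24 (SE) (adjusted p = 0.0159). Elovl6, which lengthens palmitate, had levels of 2.74, 3.52 and 3.25 and 1.76, 1.68 and 1.68, a difference of -1.46 ± 0.24 (SE) (adjusted p = 0.0206). Srebf1, the sterol-regulated factor that drives these genes, had levels of 6.52, 6.83 and 6.46 and 5.60, 5.37 and 5.25, a difference of -1.20 ± 0.20 (SE) (adjusted p = 0.0217). For Fasn the AAV-GFP arrays were at 6.76, 7.08 and 6.74. All lay above the AAV-hGRβ arrays, and AAV-GFP replicate 2 lay within the untreated range.

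Cholesterol synthesis and uptake had 4 of 26 genes lower and 0 higher (median -0.56; 24 of 26 were below 0). Lss, lanosterol synthase, Stard4, a sterol carrier, and Scap, the escort of the sterol-regulated factors, differed by -0.98, -0.96 and -0.86 (adjusted p = 0.0353, 0.0321 and 0.0421). Lss had levels of 1.60, 2.01 and 1.45 in untreated and 0.75, 0.84 and 0.53 in AAV-hGRβ livers, and its probes differed by -0.98 to -0.16.

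PPARα, the receptor that drives fatty acid oxidation in liver, had 3 of 31 targets lower and 0 higher (median -0.32, turning to 0.09 with normexp). Cyp4a14, a fatty acid ω-hydroxylase, had levels of 7.70, 7.13 and 6.88 and 5.81, 5.03 and 5.81, a difference of -1.68 ± 0.33 (SE) (adjusted p = 0.0359). Cyp4a31 of the same family, whose near copies may share signal, and the peroxisomal thiolase Acaa1b differed by -1.38 and -1.40 (adjusted p = 0.035 and 0.0256). In the slide fit 0 genes of these 3 lipid lists passed. Without untreated replicate 2 the fatty acid, cholesterol and PPARα lists had 8, 8 and 6 lower genes, and without untreated replicate 3, untreated replicate 4 or AAV-hGRβ replicate 3 they had 0. Without AAV-hGRβ replicate 1 they had 3, 2 and 3, and without AAV-hGRβ replicate 2 they had 1, 0 and 0.

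Few genes of the glucocorticoid axis passed the test, at shares above the 3.57% of all genes. The shares were 9.68% of glucocorticoid-induced genes and 11.1% of receptor partners and hormone carriers. The mouse gene Nr3c1 had levels of 2.55, 2.73 and 2.71 in untreated and 2.25, 2.47 and 2.20 in AAV-hGRβ livers, a difference of -0.36 ± 0.16 (SE) with adjusted p = 0.191; its 4 probes differed by -0.91 to -0.28. Of 31 genes known to be induced by glucocorticoids 1 was higher (Cdkn1a) and 2 were lower, with a median of -0.18. The lower genes numbered 6 with arrays centred on their medians, 5 with replaced normexp and 0 with normexp or quantile normalization. Tat, the tyrosine aminotransferase that is a classical target of the α receptor, had levels of 6.42, 7.28 and 7.22 and 5.98, 5.32 and 5.81, a difference of -1.27 ± 0.27 (SE) (adjusted p = 0.0425, 0.238 in the slide fit). Sds, serine dehydratase, had levels of 4.17, 4.33 and 4.65 and 3.16, 3.29 and 3.23, a difference of -1.15 ± 0.23 (SE) (adjusted p = 0.0367, 0.225 in the slide fit).

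G6pc, which releases glucose from the liver, had levels of 5.37, 6.05 and 5.88 and 4.81, 4.94 and 4.29, and its difference of -1.08 ± 0.26 (SE) did not pass (adjusted p = 0.0562), although the groups did not overlap. Pck1, the first step of gluconeogenesis, differed by -0.19 ± 0.30 (SE) (adjusted p = 0.692), and Ppargc1a, a co-activator of that pathway, by -0.60 ± 0.24 (SE) (adjusted p = 0.166). The general targets Tsc22d3 (GILZ) and Fkbp5 differed by 0.52 ± 0.47 (SE) and 0.06 ± 0.27 (SE) (adjusted p = 0.473 and 0.901), and Fkbp5 was -0.29 with arrays centred on their medians. Igfbp1, an insulin-like growth factor binding protein, differed by 0.38 ± 0.54 (SE) (adjusted p = 0.663) and the kinase Sgk1 by 0.32 ± 0.40 (SE) (adjusted p = 0.61; -0.03 with arrays centred on their medians). The clock gene Per1 differed by -0.58 ± 0.71 (SE) (adjusted p = 0.61), with -1.64 on scan day 1 and 1.54 on day 2. For Pck1, Ppargc1a, Tsc22d3, Fkbp5, Igfbp1, Sgk1 and Per1 the groups overlapped.

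**Figure D4:**
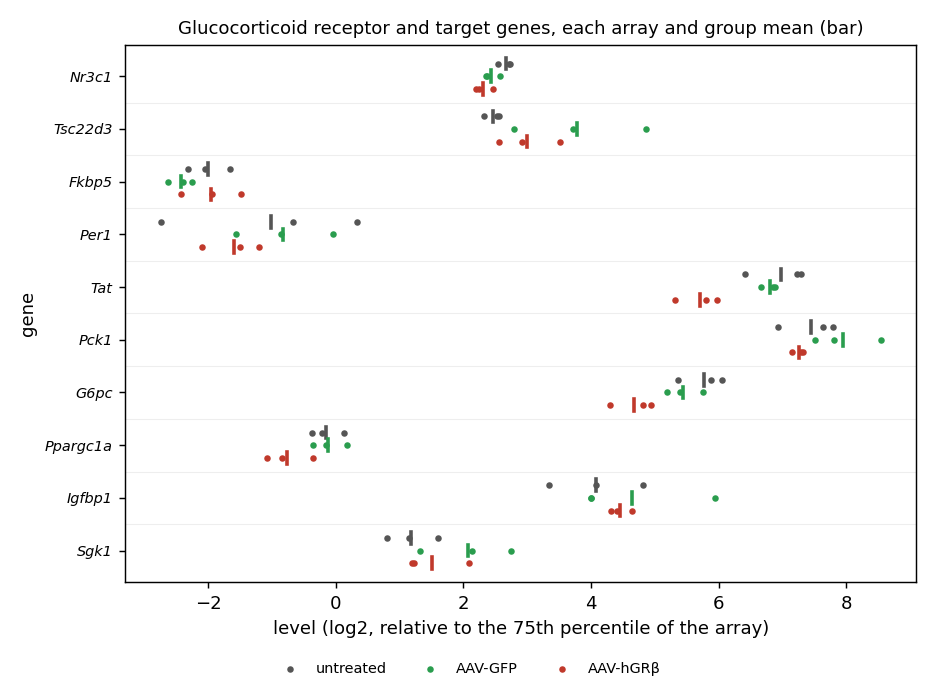
Level (log2 relative to the 75th percentile of the array, x axis) of Nr3c1 and 9 glucocorticoid target genes, each point an array and each bar a group mean. Untreated and AAV-hGRβ arrays separate for Nr3c1, Tat and G6pc, of which Tat passed the test.

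Among receptor partners and hormone carriers 2 of 18 were lower (median -0.36): Bag2, a co-chaperone, at -0.77 ± 0.16 (SE) and Serpina6, the corticosteroid-binding globulin of plasma, at -0.90 ± 0.20 (SE) (adjusted p = 0.042 and 0.0454). Gluconeogenesis had 1 lower of 23 genes, Tat, and a median of -0.44, and amino acid and urea metabolism had 2 lower of 37, Tat and Sds, and a median of -0.32 that was 0.12 with normexp. The passing genes of these lists and both lower glucocorticoid-induced genes were lost in the slide fit. They were also lost without untreated replicate 3, untreated replicate 4 or any AAV-hGRβ replicate, and without untreated replicate 2 the glucocorticoid-induced, partner, gluconeogenesis and amino acid lists had 6, 3, 5 and 5 lower genes.

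Other liver functions changed in few genes. Hepatocyte markers had 1 lower of 28 (Tat) and a median of -0.19, which was 0.26 with normexp. Growth hormone and insulin signalling had 2 lower of 25 (median -0.33): Srebf1 and the insulin receptor Insr, with levels of 1.04, 2.01 and 1.86 and 0.57, 0.36 and 0.14 and a difference of -1.28 ± 0.28 (SE) (adjusted p = 0.0454). Glycolysis and glycogen had 1 higher of 30, Pkm, a share of 3.33% against 2.7% of all genes. Female-biased genes had 1 lower of 13, Slc22a26, an organic anion transporter, at -1.24 (adjusted p = 0.032). Each of these calls was lost in the slide fit.

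In 8 more lists no gene passed limma's test or the slide fit. At an unadjusted p under 0.05, bile acid genes had 1 higher and 5 lower of 29, P450 and drug metabolism genes 4 and 7 of 37, acute phase genes 3 and 4 of 28, complement and coagulation 2 and 5 of 36, and male-biased genes 0 and 2 of 16. Endothelial markers had 0 and 5 of 25, cholangiocyte markers 2 and 1 of 15, and red blood cell genes 0 and 0 of 7. Over all genes tested 2475 were higher and 1830 lower at that level. Of the members with the smallest p in these lists, which did not pass, Slc10a1, the bile salt importer, was at -1.46 ± 0.36 (SE) (adjusted p = 0.0592), Itih4, an acute phase protein, at -1.48 ± 0.38 (SE) (adjusted p = 0.0692), and Ehd3, a liver endothelial marker, at -1.01 ± 0.30 (SE) (adjusted p = 0.0956). Those above 0 were Mbl2 of the complement list at 0.71, Hamp of the acute phase list at 0.95, the cholangiocyte marker Epcam at 1.23 and the red blood cell gene Hbb-bt at 0.61 (adjusted p = 0.0719, 0.0999, 0.144 and 0.279).

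Some of the lists whose medians differed between scan days are given within each day. The circadian clock list had 0 of 20 genes called (0 higher and 5 lower at an unadjusted p under 0.05) and a median of -0.51, with -1.02 on day 1 and 0.00 on day 2; Rora, a clock receptor, was at -1.05 ± 0.31 (SE) (adjusted p = 0.0932). Cytosolic ribosomal proteins had 0 of 51 called (1 higher at an unadjusted p under 0.05), with medians of 0.50 over both scan days, 0.91 on day 1 and -0.39 on day 2. Mitochondrial respiratory chain genes had 0 of 45 called (1 lower at an unadjusted p under 0.05), with medians of 0.32 over both scan days, 0.69 on day 1 and -0.37 on day 2. Day 2 holds a single untreated and a single AAV-hGRβ array. Several immune lists also had smaller medians within day 2. Chemokines stood at 1.84 (day 1) and 0.68 (day 2), and neutrophil and monocyte markers at 1.77 and 0.94. T and NK cell markers stood at 1.71 and 1.04, and dendritic cell markers at 1.28 and 0.60. Nucleic acid sensors (0.35, then 0.65) and the TNF and NF-κB list (0.33, then 0.52) went the other way. The median of interferon-stimulated genes was 1.93 on day 1 and 1.86 on day 2.

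**Figure D5:**
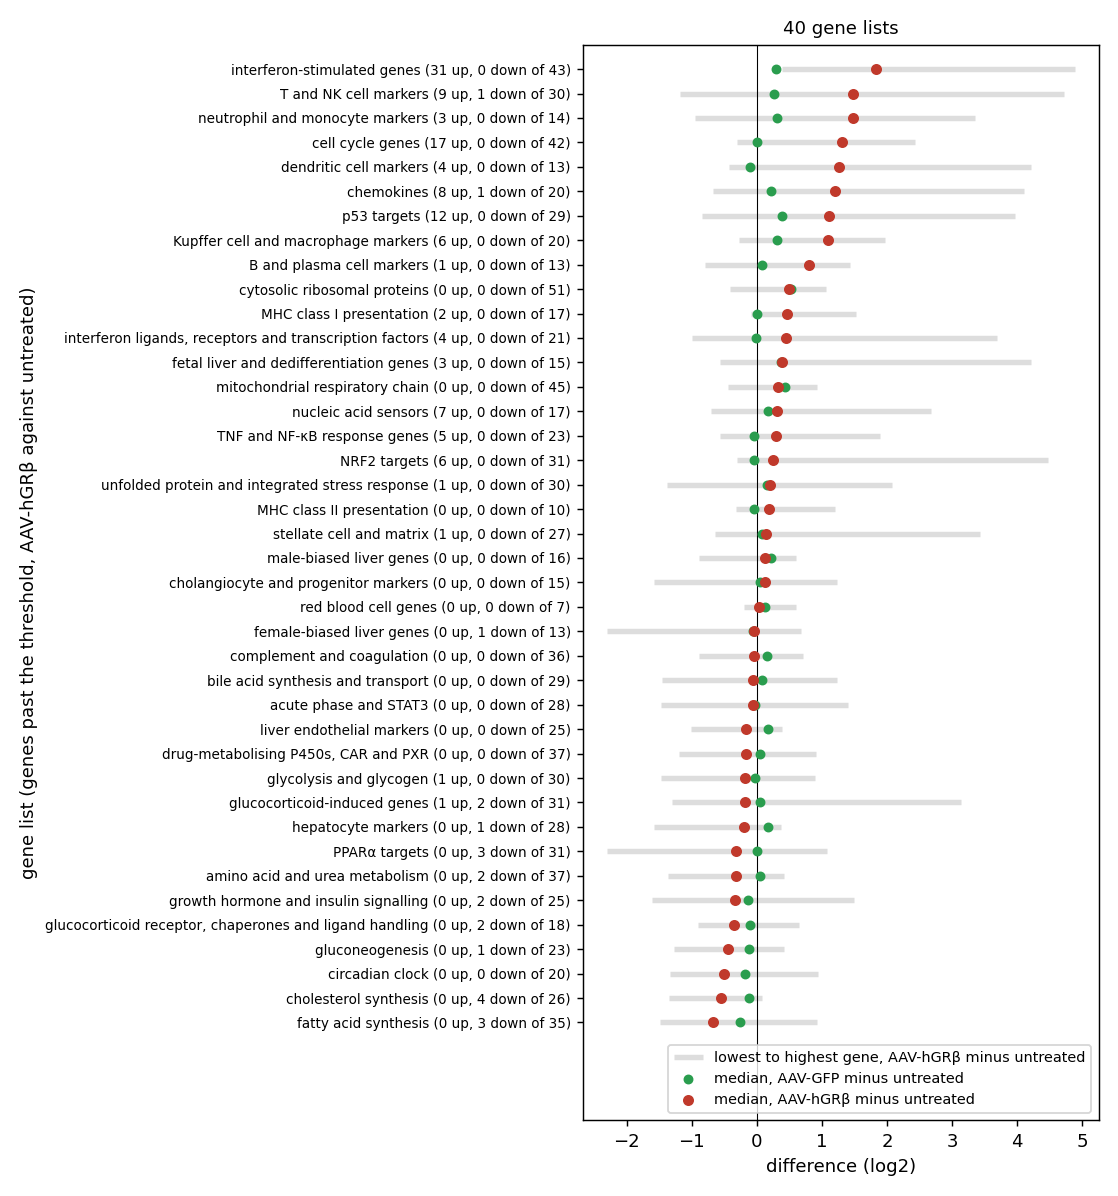
Median difference (log2, x axis) of each of 40 gene lists (y axis, with the genes past the threshold in each direction), red for AAV-hGRβ minus untreated and green for AAV-GFP minus untreated; grey bars run from the lowest to the highest gene of the former. Interferon-stimulated genes have medians of 1.83 and 0.29, and both comparisons use the same untreated arrays.

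AAV-GFP livers give the response to a vector without the receptor isoform. Against the same untreated arrays 0 of 16574 genes passed limma's test (1637 with an unadjusted p under 0.05, smallest adjusted p = 0.242; 0 in the slide fit, 1 with scan day as a block and 3 with arrays centred on their medians). AAV-hGRβ and AAV-GFP were compared directly in the same fit, which is the test of whether the 2 responses differ: 155 genes passed (0.935%), 143 higher (0.863%) and 12 lower (0.0724%) with AAV-hGRβ. In the slide fit 75 passed. Both comparisons with AAV-GFP used probes kept through the AAV-hGRβ or untreated arrays. Genes well above background in AAV-GFP livers alone were not tested, so the counts of 143, 12 and 0 leave them out. Genes kept through AAV-hGRβ alone were included.

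The 16 largest rises over untreated livers were chosen with the same 3 AAV-hGRβ arrays that enter the direct comparison. Their result there is therefore not independent of the choice. Of the 16, 14 were also higher in the direct comparison, and Pdcd1 and Ccl3 did not pass there (adjusted p = 0.236 and 0.0947). Ifi44 was 0.65 for AAV-GFP minus untreated and 4.24 for AAV-hGRβ minus AAV-GFP (adjusted p = 0.00279), and Irf7 was 0.56 and 2.65 (adjusted p = 0.00279). None of the AAV-GFP arrays had Ifnb1 or the Cd8a probe well above background, and AAV-hGRβ livers were at least 5.12-fold and at least 12.7-fold higher (adjusted p = 0.000594 and 0.00819). Both probes entered the test through the AAV-hGRβ arrays alone, and against untreated livers both calls were lost with normexp. Gzma was 0.98 and 3.73 (adjusted p = 0.0105), and Cbr3 0.34 and 4.14 (adjusted p = 0.00374). In the interferon-stimulated list 24 of 43 genes passed between AAV-hGRβ and AAV-GFP, in the cell cycle list 7 of 42, in the p53 list 6 of 29 and in the NRF2 list 5 of 31.

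For Fasn and Insr both differences were below 0, and the direct comparison did not pass. Fasn was -0.67 for AAV-GFP minus untreated and -0.82 for AAV-hGRβ minus AAV-GFP (adjusted p = 0.2), Insr -0.84 and -0.44 (adjusted p = 0.612), and Tat -0.18 and -1.10 (adjusted p = 0.128). In the fatty acid, cholesterol, PPARα and gluconeogenesis lists 0 genes passed in either of these comparisons. Among the falls, Polr3g was -0.04 and -1.44 (adjusted p = 0.00789) and Gas1 -0.26 and -1.66 (adjusted p = 0.0224). A gene that passes against untreated and not against AAV-GFP is not thereby shown to respond to the vector.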

How the data were processed

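Liver RNA was profiled on 9 single-colour Agilent mouse arrays in 3 groups of 3. The deposited array files held background-subtracted spot intensity on a linear scale with no scaling between arrays, per the file headers; the software was Agilent's Feature Extraction 9.5 by the submitters' processing notes, and the series table held the same values. Control spots and outlier spots were left out, log2 was taken and the array's 75th percentile subtracted. Probes well above background on all 3 arrays of AAV-hGRβ or untreated were kept (23889), and the brightest probe stood for each of 16574 genes, named through RefSeq tables (GRCm38.p6). Probe positions are on mm7. limma 3.58.1 (R 4.3.3; lmFit and eBayes on all 9 arrays, 6 residual degrees of freedom, two-sided, Benjamini-Hochberg over all genes at 0.05) gave every adjusted p; it was tested on simulated data. The number of arrays limits the precision. Of 1121 entries in 40 gene lists, 1090 were on the array. The comparison and the lists were chosen with earlier results of these data known. Named genes are 10 genes of interest, the 16 largest rises and 16 largest falls with groups that do not overlap (names that are only identifiers, and genes with a probe moving the other way, passed over), and up to 5 passing members of each list with the smallest p, or up to 2 that did not pass. A few members of these lists are not reported here. Alternatives covered scaling, background correction, filter, probe choice, scan day, slide, replicate number and each array left out.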

Additional observations from a re-analysis of the deposited data

How the results depend on the processing

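The count of 591 genes was 656 with arrays centred on their medians, 430 with quantile normalization and 855 with normexp after bright local backgrounds were replaced; it was 50 with plain normexp, under which 95 of the 448 rises changed sign, 85 with no filter on dim probes (27563 genes tested), 376 with only the 6 arrays fitted, 1318 with scan day as a block and 60 with slide as a random block (correlation within a slide 0.465). The deposited series table gave the same 591. Leaving out 1 array each gave 101 to 2116. Replicate numbers 2 and 3 are shared between the groups. Deviations from the group means correlated at -0.18 and 0.09 for samples with the same number, and at -0.16 to 0.20 for other pairs. So few pairs cannot tell whether the number pairs samples, and no pairing was used in the main fit. With the replicate block 1 gene passed. AAV-hGRβ against AAV-GFP went from 155 genes to 267 with scan day as a block, 75 with slide as a random block and 2 with the replicate block, and was 105 with arrays centred on their medians. AAV-GFP against untreated went from 0 to 3 with arrays centred on their medians and 1 with scan day as a block, and stayed at 0 with the replicate block. Plain normexp turned the sign of Oas1b (-0.40), Itgax (-0.0077), Tnf (-0.39), Ccnb1 (-0.20), Epcam (-0.038), Fkbp5 (-0.39), Pck1 (0.19), Alas2 (0.25) and Ndufs1 (0.018). Sgk1 turned to -0.030 with arrays centred on their medians. Fkbp5 turned to -0.29 there, to -0.056 with quantile normalization, to -0.12 with the replicate block and ran from -0.17 to 0.29 with an array left out, and Per1 from -1.44 to 0.10. The cause of these changes was not tested. Signal over background limits the dim genes: 36 of the rises had no probe above background in untreated livers.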

Other observations

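Gene families were also read by the start of their symbols. They were chosen after the values were seen and so have no test as groups, and some members are in the lists above (such as Oas1a, Gbp3, Tlr7 and Cenpa), so that their calls are not new. Over all genes tested 2.7% were higher and 0.863% lower. All 9 oligoadenylate synthetase genes measured were higher, from 1.60 to 3.93 among those with a probe above background in untreated livers, as were all 4 Schlafen genes. Slfn2 and Slfn10-ps were at 2.29 and 1.89, and Slfn4 and Slfn9, not well above background on any untreated array, were at least 5.53-fold and at least 2.23-fold higher. Of the Ms4a family of leukocyte membrane proteins 8 of 11 were higher (median 2.08), with Ms4a4c at 3.47 (adjusted p = 0.012). The guanylate-binding proteins, GTPases induced by interferon, had 5 of 10 higher (median 1.27), and Gbp3 was at 3.50 (adjusted p = 0.00164). Toll-like receptors had 3 of 8 higher, with Tlr2 at 2.06 and Tlr7 at 2.08 (adjusted p = 0.00444 and 0.0367), and C-type lectins had 7 of 23 higher. The tripartite motif family had 6 of 43 higher, all of them Trim12, Trim30 or Trim34 genes, and its median was 0.13, with 24 above 0. Zinc finger genes (Zfp) had 8 higher and 1 lower of 290, near the share of all genes, and kinesins (Kif) 3 higher and 1 lower of 25 with a median of 0.03. Natural killer lectin receptors (Klra) had 3 of 10 higher with a median of 2.02 that turned to -0.15 with normexp. Members of the Oas, Slfn, Gbp, Ms4a and Klra families are close copies that can share signal on a probe.

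Some families had lower genes. Nuclear factor I genes, which encode factors of liver and brain development, were all below 0, and 2 of 4 passed: Nfib at -1.44 and Nfia at -0.92 (adjusted p = 0.037 and 0.0392). Both were also below 0 in AAV-GFP against the same untreated arrays, at -0.97 and -0.66, where they did not pass. Ceacam1, which takes part in insulin clearance by liver, and Ceacam2 differed by -1.10 and -1.09 (adjusted p = 0.0359 and 0.0379). Of the 4 Ceacam genes tested these 2 were lower and the other 2 were above 0 (family median -0.50, highest 0.49). Calcium-binding S100a genes had 3 of 12 higher, with S100a4 at 2.58 (adjusted p = 0.0143), and centromere proteins had 4 of 19 higher, with Cenpa at 1.35 (adjusted p = 0.0481). Among the genes named here Gbp3 and Tlr2 also passed with slide as a random block (0.023 and 0.0465 after adjustment).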
